A study of Homo sapiens with 10 samples.

Results

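Peaks of poly(A) 3′-seq on processed pseudogenes were taken from the list of 178837 peaks that pools all libraries of the study. A peak was counted when its summit, the position with the most reads, lay inside a processed or transcribed processed pseudogene of GENCODE release 44 or up to 600 bp past its 3′ end, and outside the exons and the transcript-end windows (200 bp before to 600 bp after each annotated end) of protein-coding and lncRNA genes. This left 2100 peaks, or 1.18% of the 178392 peaks on chromosomes (95% Wilson interval 1.13% to 1.23%). They lay in 1554 pseudogenes, which is 14.9% of the 10455 with at least 100 bp of eligible sequence, that is, sequence outside those exons and windows. Of these peaks, 1560 lay in genes of the processed type and 540 in genes of the transcribed processed type.

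Poly(A) 3′-seq reads the junction of an RNA with its poly(A) tail and so marks 3′ ends. The cells were IMR-32, an established human neuroblastoma line, transduced with lentiviral short hairpin RNAs and selected with puromycin. There were 10 libraries: 4 with knockdown of the kinase CDK12 (hairpins sh22 and sh98, 2 libraries each), 4 with knockdown of CDK13 (sh701 and sh704, 2 each) and 2 with the control hairpin shGFP. The list holds 1 set of values for all libraries together and no strand, so that no group, hairpin or replicate could be compared. The authors reduced the libraries to the size of the smallest before merging them, and the list does not give how many reads that left. The labelled cell line was checked at 7 neuroblastoma genes, all of which had a peak at an annotated end, from ISL1 with a highest pileup of 16 reads to MYCN with 73.

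Processed pseudogenes are copies of messenger RNAs that were reverse transcribed and inserted back into the genome. Such a retrocopy has lost the introns of its parent gene, usually lacks a promoter, and carries at its 3′ end the copied polyadenylation signal followed by an A-rich stretch that was once the poly(A) tail. Genes with abundant messenger RNA in the germ line, such as those for ribosomal proteins, have left the most copies. An oligo(dT) primer can pair with a poly(A) tail and also with a run of A inside an RNA, and reads from a young retrocopy can be hard to tell from those of the parent gene.

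The sequence at the 3′ edge of a peak shows these features, and the 4 strongest retrocopies with a canonical signal among those named below are shown for that reason. Each line gives 60 bases up to the 3′ edge of the peak and 20 bases after it, 5′ to 3′ on the strand of the pseudogene, from GRCh38. Capitals mark AATAAA or ATTAAA starting 35 to 15 bp before the edge, and the 10 bases after the edge where at least 7 of them are A.
RPL13P12, chr17:17383316-17383395, minus strand: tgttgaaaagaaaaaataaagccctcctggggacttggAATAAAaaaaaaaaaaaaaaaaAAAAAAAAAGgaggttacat
RPS23P8, chrX:70963292-70963371, plus strand: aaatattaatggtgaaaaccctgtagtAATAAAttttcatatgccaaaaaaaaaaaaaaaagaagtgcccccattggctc
EEF1A1P13, chr5:14651611-14651690, minus strand: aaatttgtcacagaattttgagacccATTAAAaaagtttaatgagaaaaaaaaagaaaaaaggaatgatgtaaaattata
YBX1P10, chr9:35970909-35970988, minus strand: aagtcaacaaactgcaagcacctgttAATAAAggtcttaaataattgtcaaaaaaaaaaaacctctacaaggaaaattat
In all of these a run of A followed the signal, and in RPS23P8 and YBX1P10 all but its last base lay inside the interval of the peak. In RPL13P12 the capitalised signal was itself the start of the run.

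The strongest peaks whose summit sequence had no close genomic match elsewhere are shown next. The sequence from 50 bp before to 50 bp after their summits had no other genomic match at 95% identity or more, which is called a similar copy below. Matches split by an intron of the parent were not counted. Matches can also be missed where this window runs past the copied transcript end, since sequence beyond it need not match the parent's locus. By alignment, the summits of the RPS14 copy and NPM1P27 lay 24 and 14 bp from the parent's transcript end. Their identities to the parent transcript were 95.8% and 98.2%, so no similar copy does not mean unlike the parent.
ENSG00000226396, a copy of RPS14, chr1:19608625-19608704, plus strand: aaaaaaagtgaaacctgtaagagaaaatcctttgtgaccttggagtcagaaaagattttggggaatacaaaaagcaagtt
NPM1P27, chr5:93682481-93682560, minus strand: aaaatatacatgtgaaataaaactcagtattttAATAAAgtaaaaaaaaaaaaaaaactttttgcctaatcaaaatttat
TTC3P1, chrX:75744570-75744649, minus strand: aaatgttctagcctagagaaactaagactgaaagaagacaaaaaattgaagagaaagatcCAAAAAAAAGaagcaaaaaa
NPM1P27 held a signal and an A run, the RPS14 copy held neither in these positions, and TTC3P1 held an A-rich stretch with no signal.

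Where a pseudogene lies in an intron of another gene, the host transcript runs through it, on the same strand or on the opposite one. The next sequences were chosen, after their values were seen, for at least 7 A past the edge on the strand of the host and no canonical signal. The second pair was also chosen for fewer than 7 A past the edge on the strand of the pseudogene. Stronger retrocopy peaks in introns of the opposite strand, such as RPS28P7 and FABP5P7, were not A-rich on the host strand. The first pair is printed on the strand of pseudogene and host, and the second pair on the strand of the host, which is opposite to the pseudogene.
ENSG00000244313, a copy of RPS10, chr11:46428566-46428645, minus strand: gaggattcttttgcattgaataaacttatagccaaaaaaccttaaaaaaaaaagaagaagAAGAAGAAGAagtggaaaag
RPS28P4, chr2:231256410-231256489, plus strand: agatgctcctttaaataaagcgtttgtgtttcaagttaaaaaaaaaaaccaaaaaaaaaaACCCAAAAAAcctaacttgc
RPL35AP29, chr12:51107290-51107369, minus strand: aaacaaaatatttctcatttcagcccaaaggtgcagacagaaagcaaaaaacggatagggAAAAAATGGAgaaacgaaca
BANF1P3, chr2:230724911-230724990, plus strand: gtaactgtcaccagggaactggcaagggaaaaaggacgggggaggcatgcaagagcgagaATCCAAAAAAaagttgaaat
The copies of RPS10 and RPS28 both had an AATAAA further upstream of the edge than the counted window.

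To ask whether these genes hold more peaks than their surroundings, the density of summits was compared within the same context. Between genes, 1009 peaks fell in 14.3 Mb of pseudogene sequence, or 70.8 peaks per Mb, against 13.1 per Mb in the rest of the intergenic sequence. This is a ratio of 5.41 (95% exact conditional binomial interval 5.07 to 5.76). In introns, 1091 peaks fell in 7.93 Mb, or 137 per Mb, against 70.8 per Mb in the rest, a ratio of 1.94 (1.83 to 2.06). Both ratios were smaller without the 600 bp past the 3′ end, at 4.17 (3.84 to 4.52) between genes and 1.43 (1.31 to 1.56) in introns. All intervals cover counting error only, and peaks are not replicates. Between genes means outside protein-coding and lncRNA genes, so long loci of transcribed pseudogenes can count as between genes with their introns. An example is ENSG00000286215, with 61 peaks over 909 kb. No ratio was computed for the retrocopies alone.

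The share of 14.9% of pseudogenes with at least 1 peak is the background for all counts of pseudogenes that follow. Among those with a peak, 1317 had 1, 162 had 2 and 75 had 3 or more. Of the genes of the processed type 13.8% had a peak (13.2% to 14.5%), and of those of the transcribed type, for which transcription is annotated, 37.4% (33.1% to 41.9%). The transcribed type includes long loci, up to 909 kb, in which a peak has more room to fall. These shares were not adjusted for length.

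The peaks gathered at the 3′ end of the retrocopies. Some transcribed pseudogenes are annotated as long loci around a short retrocopy, so the retrocopy itself was taken as the span of the pseudogene transcripts or, above 5 kb, as their longest exon. By this measure 654 peaks lay inside the retrocopy, 1013 within 600 bp past its 3′ end and 433 in the rest of 109 long loci. In the last 50 bp of the retrocopy the density was 458 peaks per Mb of eligible sequence and in the first 50 bp past it 353, compared with 18.1 to 90.9 per Mb in the bins of 50 bp from -999 to -50 bp. The density was still 120 per Mb at 551 to 600 bp past the end. Relative to the annotated 3′ end of the whole gene, 39.2% of the 2100 peaks (37.1% to 41.3%) had their summit within 200 bp, where 18.1% of the eligible sequence lies. Both shares are taken over whole genes, with the introns of the long loci, which lower the share of sequence near the end. The share of sequence was not computed for the retrocopies alone.

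Pseudogenes that resemble their parent closely had a peak most often. A parent coding gene was assigned by alignment to 8801 of the 10455 pseudogenes, and it matched the gene in the pseudogene's own symbol in 5628 of 5876 cases where both were known. A peak was found in 4.75% of 1664 pseudogenes with under 80% identity to the parent transcript (3.83% to 5.88%). The share was 20.6% of 2342 at 90 to 95% identity (19.0% to 22.3%), 46.6% of 754 at 95 to 98% (43.0% to 50.1%) and 62.5% of 272 at 98% or more (56.6% to 68.0%). The highest class exceeded the lowest by 57.8 percentage points (95% Newcombe interval 51.8 to 63.4), and by 30.4 points (25.1 to 36.2) when peaks past the end of the gene were left out. With only those retrocopy peaks counted whose summit sequence had no other genomic match at 95%, a choice made after seeing the data, the difference was 6.32 points (3.14 to 10.5), where pseudogenes of high identity lose most peaks by construction.

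Among pseudogenes of at least 95% identity, the share also differed with the peaks at the parent's own ends. It was 21.3% of 75 pseudogenes whose parent had no peak at an annotated end (13.6% to 31.9%) and 67.6% of 441 whose parent had a peak of 41 or more reads (63.1% to 71.8%), a difference of 46.2 points (34.8 to 55.1). Below 85% identity the share ran from 5.56% (3.66% to 8.34%) to 6.92% (5.67% to 8.42%) over the same classes of parent, and these intervals overlap. The keratins, intermediate filament proteins of epithelia, have many retrocopies, and neither KRT18 nor KRT8 had a peak at an annotated end. A peak was found in 4 of 66 copies of KRT18 and 7 of 55 copies of KRT8. For EEF1A1, the translation elongation factor that brings aminoacyl-tRNA to the ribosome, it was 17 of 46 copies, at a median identity of 89.3% compared with 90.3% for the copies of KRT18. A strong end of the parent did not always go with a high share. For GAPDH, a glycolytic enzyme whose strongest end had 43 reads, a peak was found in 8 of 66 copies (12.1%, 6.27% to 22.1%), and for RPL21, with 52 reads, in 15 of 123 (12.2%, 7.53% to 19.1%), compared with 12.7% for KRT8 (6.3% to 24%).

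By parent function, 10 groups of genes were compared with the background of 14.9%. Copies of translation factors had a peak in 63 of 177 cases, or 35.6% (28.9% to 42.9%). Copies of genes for chromatin and acidic nuclear proteins had one in 88 of 316 (27.8%, 23.2% to 33.0%), and those for RNA-binding and spliceosome proteins in 73 of 272 (26.8%, 21.9% to 32.4%). The largest group, cytosolic ribosomal proteins, had a peak in 453 of 1932 copies (23.4%, 21.6% to 25.4%). Smaller groups were ferritin, with 11 of 35 copies (31.4%, 18.6% to 48.0%), and chaperones, proteasome and ubiquitin, with 71 of 378 (18.8%, 15.2% to 23%). These 6 intervals lay above the background. Those of the copies for glycolysis enzymes (18 of 99), the respiratory chain (53 of 356) and the cytoskeleton (35 of 240) included it. For 14-3-3 proteins, calmodulin and small GTPases the share was 9 of 117, or 7.69% (4.1% to 14%). The groups were chosen with earlier results known, and the classes of identity and parent peak differ between them.

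Of the 4 strongest retrocopies, 3 were copies of ribosomal protein genes. The pileup is the number of counted reads over the summit after extension. The fold is that number over the local background, with a pseudocount of 1 added to each. The sources used here do not say whether reads with the same start were counted once or each time. If counted once, the pileup of a strong peak would lie below its number of reads. RPS28P7 (chr11:82689748-82689932), a copy of a small-subunit protein gene in an intron of the opposite strand, had 67 reads at a fold of 39.3, compared with 62 reads at the matching peak of RPS28. RPL13P12 (chr17:17383336-17383499) had 66 reads and RPS23P8 (chrX:70963148-70963351) had 58, where the nearest peaks of their parents had 73 and 81. FABP5P7 (chr11:59781085-59781349), a copy of a fatty acid-binding protein gene, also had 58 reads, against 28 at the nearest peak of FABP5. For each of these the summit sequence had at least 1 other genomic match at 99% or more. RPS28P7 and FABP5P7 lay past the annotated 3′ end of the retrocopy, by 71 and 141 bp.

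In the other parent groups, the leading members had between 22 and 56 reads. EEF1A1P13 with 56 reads and EEF1A1P5 with 55 were both above the 45 reads of the strongest end of EEF1A1. Their summit sequences had 14 and 11 other genomic matches at 95% or more. Of the members named in this paragraph, only TMSB4XP4 and PGAM1P5 had no such match. Where there is one, the list does not tell which copy the reads came from. HMGB1P6 and HMGB1P5, copies of a DNA-bending chromatin protein gene, had 55 and 48 reads, and YBX1P10 and SERBP1P5, copies of genes for RNA-binding proteins, had 55 each. Of the chaperone and ubiquitin group, UBE2SP1 had 53 and HSPD1P1, from the mitochondrial chaperonin gene, had 49. FTH1P20 and FTH1P11, from the gene of the ferritin heavy chain that stores iron, had 35 and 27. TMSB4XP8 and TMSB4XP4, from the gene of an actin-sequestering peptide, had 34 and 25. RAC1P2 and ENSG00000237493, copies of small GTPase genes (the latter of RAB13), had 33 and 24. TPI1P1 had 33 and PGAM1P5 had 26, both from glycolytic enzymes, though the PGAM1P5 peak lay outside the retrocopy. ATP5F1EP2 and COX6A1P2, from subunits of ATP synthase and cytochrome c oxidase, had 30 and 22.

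Members with no similar copy reached lower pileups. The RPS14 copy ENSG00000226396 had 44 reads, NPM1P27, from a nucleolar chaperone gene, had 42, and TTC3P1 had 38. A copy of RPL27A, ENSG00000218426, had 33. Over all retrocopy peaks, the median pileup was 16 reads for 223 with an identical copy elsewhere, 14 for 182 with a copy at 99 to 100%, 11 for 484 at 95 to 99% and 9 for 778 with none at 95%. A pileup of at least 9, the median of all chromosomal peaks, was reached by 69.6% of those with a similar copy (66.5% to 72.6%) and 54.4% of those without (50.9% to 57.8%), a difference of 15.3 points (10.6 to 19.8). For all 2100 peaks the share was 59.4% (57.3% to 61.5%), and it exceeded that of other intergenic peaks by 17.9 points (15.7 to 20.1) and of other intronic peaks by 13.2 points (11 to 15.3).

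Similar copies were frequent but less so than on unprocessed pseudogenes, which arise by duplication of genomic DNA and keep their introns. Of the 2100 peaks, 50.5% had another genomic match of the summit at 95% or more (48.4% to 52.7%), against 78.2% of 1383 peaks on unprocessed pseudogenes (76.0% to 80.3%). The difference was -27.7 points (-30.7 to -24.6). As given above, a match to the parent can be missed at its introns or past the copied transcript end. Duplicated genomic DNA is less subject to these limits, so the difference rests partly on the method. Whether all positions of reads that map to several places entered the peak calling is not given in the sources used here.

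Most of the peaks that could be placed on a parent transcript had a peak of the list near that place, called the parent's peak here. The summit could be carried by alignment onto the parent transcript for 1321 peaks. A peak in the list lay within 100 bp of the carried position for 995 of them, or 75.3% (72.9% to 77.6%), and 57.0% of the carried positions (54.3% to 59.6%) were within 100 bp of an annotated transcript end. The nearest peak over all aligned transcripts of the parent was taken, whatever its gene. The share for other positions on the parents was not computed, so these values have no background. The first share was 76.3% with a similar copy elsewhere (73.2% to 79.1%) and 73.9% without (70.0% to 77.5%), a difference of 2.35 points whose interval (-2.36 to 7.17) includes 0.

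The pileup of the retrocopy was usually below that of the parent's peak. With an identical copy elsewhere, the median ratio of pileups was 0.631 over 123 pairs, and 27 retrocopies were at or above the parent. With no copy at 95% it was 0.261 over 391 pairs, and 18 were at or above. Over all 995 pairs the 2 pileups had a Pearson r of 0.171 and a Spearman rho of 0.14, and over the 391 pairs without a similar copy 0.0418 and 0.0107. These are descriptions across sites that share 1 pool of reads. Pileups of strong parent peaks may lie below their number of reads if reads with the same start were counted once, which was not tested.

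**Figure D1:**
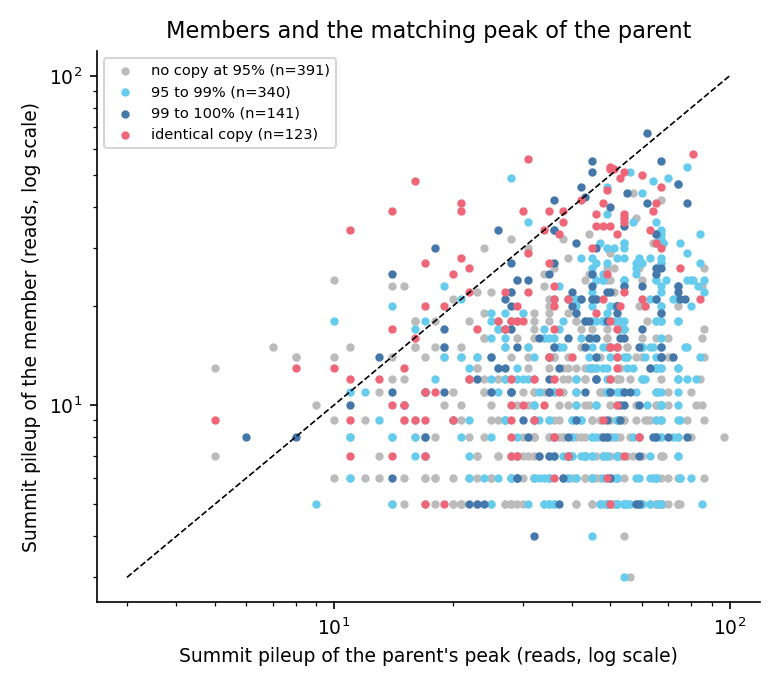
Summit pileup of each retrocopy peak (y axis, reads, log scale) against that of the matching peak of its parent (x axis, reads, log scale) for 995 pairs, coloured by the best genomic copy of the summit sequence; the dashed line marks equal pileups. Most points lie under the line, and the median ratio ran from 0.261 with no copy at 95% to 0.631 with an identical copy.

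The peaks on processed pseudogenes had a poly(A) signal more often than intronic peaks and peaks on unprocessed pseudogenes, and less often than the ends of coding genes. Any of 12 poly(A) hexamers started within 100 bp before the 3′ edge, read on the pseudogene strand, in 70.2% of the 2100 peaks (68.2% to 72.2%). The hexamer could be AATAAA or ATTAAA or AAGAAA or AATACA or AATAGA or AATATA or AATGAA or ACTAAA or AGTAAA or CATAAA or GATAAA or TATAAA, several of which can overlap each other and a run of A. The share was 49.3% in other intronic peaks, 49.8% on unprocessed pseudogenes and 78.7% at the ends of coding genes, and the differences were 20.9 points (18.9 to 22.9), 20.4 points (17.1 to 23.7) and -8.46 points (-10.5 to -6.48). The first of these rested on the 3′ edge: with the window placed before the summit, the difference to intronic peaks was 3.33 points (1.25 to 5.45). AATAAA or ATTAAA starting 35 to 15 bp upstream was found in 34.7% of the 1667 retrocopy peaks (32.5% to 37.1%) and in 4.44% on the opposite strand (3.55% to 5.54%). Other intronic peaks had it in 10.8% (10.6% to 11%) and coding gene ends in 46.1% (45.5% to 46.7%). In the rest of the long loci it was 17.6%, which is 17.2 points below the retrocopies (12.7 to 21.2).

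At least 7 A in the 10 bases after the edge were found in 40.9% of the 2100 peaks (38.8% to 43.0%), against 70.4% of other intronic peaks, 48.6% of peaks on unprocessed pseudogenes and 21.7% at coding gene ends. The difference to intronic peaks was -29.5 points (-31.6 to -27.4). On the opposite strand the order turned, with 12.5% of the peaks on processed pseudogenes (11.2% to 14%) and 4.73% of the intronic peaks, where each peak was read on the strand of its gene. As the printed sequences show, the A run can lie inside the peak, so runs of at least 10 A from 60 bp before to 20 bp after the edge were counted as well, after seeing the data. They were found in 29.8% of retrocopy peaks (27.6% to 32%), 35.5% of intronic peaks and 10.8% of coding gene ends, and over all 2100 peaks the difference to intronic peaks was -7.85 points (-9.74 to -5.87).

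The signal and the A run together were more frequent at retrocopy peaks than in the other classes of peaks. A retrocopy carries both at its 3′ end by origin, and retrocopies without a peak were not counted, so the contrast may hold for retrocopies in general. Both were found in 13.1% of the 1667 retrocopy peaks (11.6% to 14.8%), compared with 1.11% of intronic peaks (1.05% to 1.18%), 1.3% of peaks on unprocessed pseudogenes (0.825% to 2.05%) and 0.899% of coding gene ends (0.794% to 1.02%). The difference to intronic peaks was 12 points (10.5 to 13.7). The hexamer and the run may overlap, as in RPL13P12. Among retrocopy peaks with no similar copy elsewhere the share was 10.0% (8.11% to 12.3%).

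The setting of the pseudogene went with the A content at the edge. Each pseudogene was given a setting by whether most of its span lay in a protein-coding or lncRNA gene, not by the summit. By this, 439 retrocopy peaks were of pseudogenes in introns of the same strand, 466 of the opposite, 59 of both and 703 between genes. At least 7 A followed the edge in 57.2% of those in an intron of the same strand (52.5% to 61.7%), 30.3% of those in an intron of the opposite strand (26.3% to 34.6%) and 38.7% between genes (35.2% to 42.3%). The first exceeded the second by 26.9 points (20.6 to 33.0). Read on the opposite strand, the share was 25.8% for retrocopies in introns of the opposite strand (22.0% to 29.9%), which is the strand of the host, and 2.51% for those in introns of the same strand (1.4% to 4.43%). The canonical signal differed less between the first and second settings, at 30.3% and 35.6%, and the interval of that difference (-11.4 to 0.81) includes 0.

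**Figure D2:**
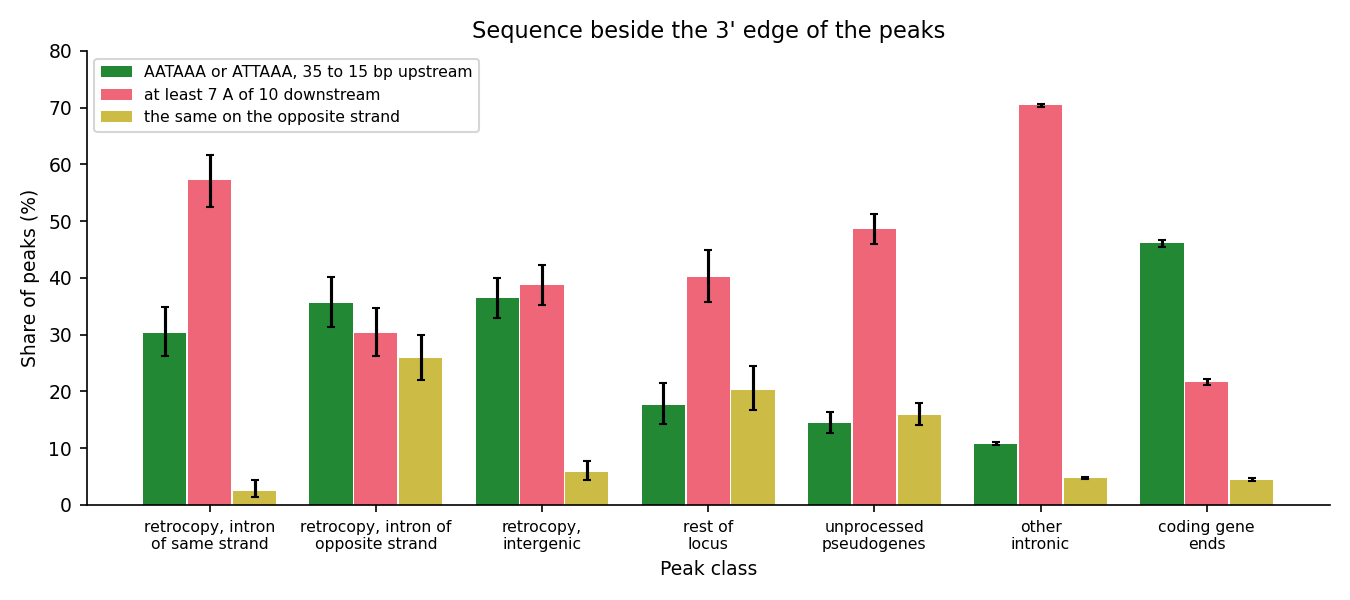
Share of peaks in percent (y axis) with AATAAA or ATTAAA 35 to 15 bp upstream of the 3′ edge (green), with 7 or more A among the 10 bases past the edge (red) and with the same A content on the opposite strand (yellow) for 7 classes of peaks (x axis); error bars are 95% Wilson intervals. Retrocopies in introns of the opposite strand had 25.8% in the yellow bar, against 2.51% for those in introns of the same strand.

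Pseudogenes of the processed type in an intron of the same strand also had a peak more often, in 22.1% of 1557 cases (20.1% to 24.2%), than those in an intron of the opposite strand, with 14.1% of 2860 (12.9% to 15.5%). The difference was 7.97 points (5.58 to 10.4). Between genes it was 11% of 5332 (10.2% to 11.9%).

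The peaks in the rest of the long loci had a canonical signal less often than the retrocopies, as given above. At least 7 A followed the edge in 40.2% of the 433 (35.7% to 44.9%) and 41% of retrocopy peaks, and the interval of the difference of 0.85 points (-4.39 to 5.95) includes 0. ENSG00000286215 on chromosome 6, a locus of 909 kb around a copy of VIM, the mesenchymal intermediate filament gene, had 61 peaks, all outside the retrocopy, with 4 to 16 reads. HNRNPKP3 on chromosome 11 had 26 peaks over 149 kb. At least 7 A followed 19 of the 26 peaks of HNRNPKP3 and 2 of the 61 of ENSG00000286215. DUXAP9 had 15 peaks with up to 27 reads, and ABCA11P and SLC44A3-AS1 had 14 each with up to 15 and 9. In these 3 loci 8, 6 and 5 peaks were A-rich. All 15 peaks of DUXAP9 had a similar copy elsewhere. In SMPD4BP, the peak at chr2:131521419-131521588 had 62 reads, lay outside the retrocopy and had 1 genomic match at 99%.

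Among the 2100 peaks the highest pileups fell in ENSG00000230021 on chromosome 1, a locus of 242 kb whose retrocopy derives from SEPTIN14, a septin gene. Of its 12 peaks, 7 had 104 to 185 reads, and all 7 had a match at 95% or more on the mitochondrial genome, while the other 5 had at most 11 reads. The highest pileup on any retrocopy was 67 reads.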

How the data were processed

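Single-end QuantSeq 3′ REV reads of 10 libraries were trimmed by the authors and mapped to GRCh38 with STAR 2.5.1b, allowing multiple positions per read. Libraries, made in different batches, were downsampled, merged and called with MACS2 2.1.1, with reads extended. The paper also describes a filter after the calling. It removed peaks with no poly(A) hexamer upstream but with a long genomic stretch of A downstream, and their reads. Whether the list used here was made before or after that filter is not given in the sources used here. The filter acts on the hexamer and A content, so the shares of both depend on this, and its effect was not tested. The fold that the authors deposited is a ratio, summit pileup over local background, with the pseudocount given above added to each. Their deposited p-values and q-values are on the −log10 scale. The deposited score column was not used, nor were peaks on spike-in, mitochondrial and unplaced sequences.

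From the fold and p-value of a peak its summit pileup was recovered, and summits were placed with GENCODE 44. Retrocopies with 600 bp of downstream sequence were aligned to coding transcripts with BLAST 2.17.0 (e-value 1e-10, word size 15), and the coding gene with the highest summed score over at least 50% of the retrocopy was taken as parent. Each summit with 50 bp on each side was aligned to the genome. A peak was read on the strand of its pseudogene or host gene, since the list has none. Shares have 95% Wilson intervals, their differences Newcombe intervals (84 were computed, without adjustment), and density ratios exact conditional binomial intervals, all of which measure counting error only and compare peaks or pseudogenes, not conditions. Steps were tested on simulated data. Scripts ran on Python 3.11.15; the packages were statsmodels 0.14.6, pysam 0.24.0, pandas 2.3.3, scipy 1.17.1 and numpy 2.4.6.

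Named were the 12 members with the highest pileup, the 5 highest with no genomic copy at 95%, the 2 highest pseudogenes of each parent group, the 5 pseudogenes with most members and the 3 highest members with AATAAA 35 to 15 bp upstream, leaving out Y-linked genes, and 1 named member is not reported here. KRT18, KRT8, EEF1A1, GAPDH and RPL21 as parents and the 4 retrocopies shown for their introns were chosen after their values were seen. Members, groups and lists were chosen with earlier results of these data known. Alternatives changed the q-value minimum, the window, the motif set, the A count and the members included.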

Additional observations from a re-analysis of the deposited data

How the results depend on the processing

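No paired analysis was possible because each value in the list rests on the reads of all libraries together. No replicate could be left out either. The reads left in each library after downsampling are not in the list, and batch effects on these peaks cannot be assessed. A share was read as moved when it left the 95% interval of the reported value. Counting the gene alone gave 1124 peaks in place of 2100. The hexamer share of 70.2% was 48.4% with AATAAA and ATTAAA alone, 60% in a window of 50 bp, 38.7% from the summit and 75.2% for the strongest peak of each pseudogene. The A-rich share of 40.9% was 50.9% at a minimum of 6 A and 12.5% on the opposite strand, where the difference to intronic peaks turned from -29.5 to 7.79 points. The pileup share of 59.4% was 63.3% for the strongest peaks. Within 100 bp of the annotated end lay 26.5% of the peaks, in place of 39.2% within 200 bp, and 66.6% of carried positions had a parent peak within 50 bp, in place of 75.3% within 100 bp. The cause of these shifts was not tested. Measured from the summit, the hexamer difference to intronic peaks fell from 20.9 to 3.33 points, and with the gene alone the difference between the classes of highest and lowest identity fell from 57.8 to 30.4 points.

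Chosen after seeing the data were the following. On the retrocopy alone the hexamer share was 74.4%, the pileup share 62.5% and the share within 200 bp of the retrocopy's own end 49.1%. For the last of these the matching share of sequence was not computed. On retrocopies with no similar copy the hexamer share was 72.2% and the pileup share 54.4%. Runs of 10 A were found in 27.7% of the 2100 peaks, which took the difference to intronic peaks from -29.5 to -7.85 points. Without similar copies the difference between identity classes was 6.32 points. These 4 differences kept their sign but not their size. In the planned settings not named as moved or turned (19 values) and the added ones (13), differences and ratios were judged by their side of 0 or 1 alone, shares by the reported interval and counts by a factor of 1.5.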
